A study of Caenorhabditis elegans with 15 samples.

Results

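The worm Caenorhabditis elegans carries several families of genes for very short proteins, and the genes described here are those named nspa, nspb, nspc, nspe, fip or fipr followed by a number. A search of the deposited table for these names found 88 genes among 46906, namely 7 fip, 29 fipr, 12 nspa, 12 nspb, 20 nspc and 8 nspe genes. RNA was taken from whole wild-type N2 worms, which had been moved as L4 larvae to one of 3 kinds of plate and kept there until day 12 of adulthood. One group received C. chinensis seed extract at 30 µg/mL, a second received E. ulmoides bark extract at 30 µg/mL, and the control group received the solvent dimethyl sulfoxide (DMSO) at 0.05%, in which both extracts were dissolved. All groups, the controls included, were kept at 22 °C on plates with carbenicillin and 100 µM FUdR, a drug that blocks the production of offspring. Each group had 5 libraries, whose titles call them biological replicates, and each library came from a tube that pooled many worms. The library descriptions also carry a code number, which differs from the replicate number. No label says that either number marks libraries of different groups that belong together. How the replicate cultures were kept apart is not given in the sources used here, so the p-values measure the spread between these libraries.

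The nsp genes encode nematode-specific peptides, a set of short proteins without recognised relatives outside the nematodes, sorted into lettered groups by sequence, and no function is established for most of them. The fip genes are called fungus-induced proteins because genes of this kind were found to rise when worms are infected by Drechmeria coniospora, a fungus whose spores stick to the cuticle and pierce the epidermis. The fipr genes are relatives of the fip genes by sequence. In that infection the epidermis also makes antimicrobial peptides of the nlp and cnc families, which is why those genes were examined beside the members.

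Expression was given as FPKM, in which a gene's fragment number is corrected for gene length and for library size, so levels can be compared roughly between genes. The comparison is less safe for genes annotated as shorter than the cDNA fragments the authors selected, as several nspa genes are. Fragment totals ranged from 37920765 to 87238546 per library, with medians of 45859124 with DMSO, 43831145 with C. chinensis and 44644089 with E. ulmoides. A gene entered the test when 5 or more of the 15 libraries reached 1 FPKM, which kept 13743 genes and 43 of the 88 members, namely 3 fip, 8 fipr, 8 nspa, 18 nspc, 6 nspe and no nspb gene. Differences are log2 fold changes fitted by limma on log2(scaled FPKM + 0.5) over all 15 libraries, and calls needed a p under 0.05 after Benjamini-Hochberg adjustment over all tested genes, together with a fitted fold exceeding 1.5 or falling short of 0.667. The libraries were rescaled for the fit, which lowered the C. chinensis values and raised the E. ulmoides values, and the fit averages log2 values, so fitted folds differ from ratios of the mean FPKM. The FPKM printed here, and whether groups overlapped in them, are from before this rescaling. Over all tested genes the split of higher and lower calls moved with the scaling. With C. chinensis 2322 genes were called higher and 480 lower, against 3126 and 125 with no further scaling and 1582 and 854 with quantile normalization. With E. ulmoides 153 were called higher and 15 lower, against 20 and 25 with no further scaling and 32 and 9 with quantile normalization. Between the extracts 1809 were higher with C. chinensis and 1314 lower, against 3827 and 84 with no further scaling. Leaving out the scaling moved the median log2 fold change of all tested genes from -0.09 to 0.06 with C. chinensis, from 0.07 to -0.07 with E. ulmoides and from -0.05 to 0.22 between the extracts.

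With C. chinensis against DMSO, 24 of the 43 tested members were called higher and 2 lower, against 16.9% and 3.49% of all tested genes. Among the 37 members that passed the filter without the C. chinensis libraries, 20 were called higher, beside 15.8% of all genes passing that way. The 24 were 16 nspc genes, all 3 tested fip genes, fipr-21, fipr-22 and fipr-24, and nspe-1 and nspe-2, and the 2 lower were nspa-4 and nspe-6. In 22 of the 43 members every C. chinensis library lay above every DMSO library, as in 28.8% of all tested genes. The median log2 fold change was 1.97 over the tested fip genes, 1.55 over nspc, 0.43 over nspe, 0.24 over fipr and -0.26 over nspa, beside -0.09 over all tested genes. The higher calls were thus mostly nspc and fip genes, and most tested fipr, nspe and nspa genes were not called higher. Each of 23 of the 24 higher calls held in every alternative that gave a value, while nspe-1 lost its call in 3 of them.

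**Figure D1:**
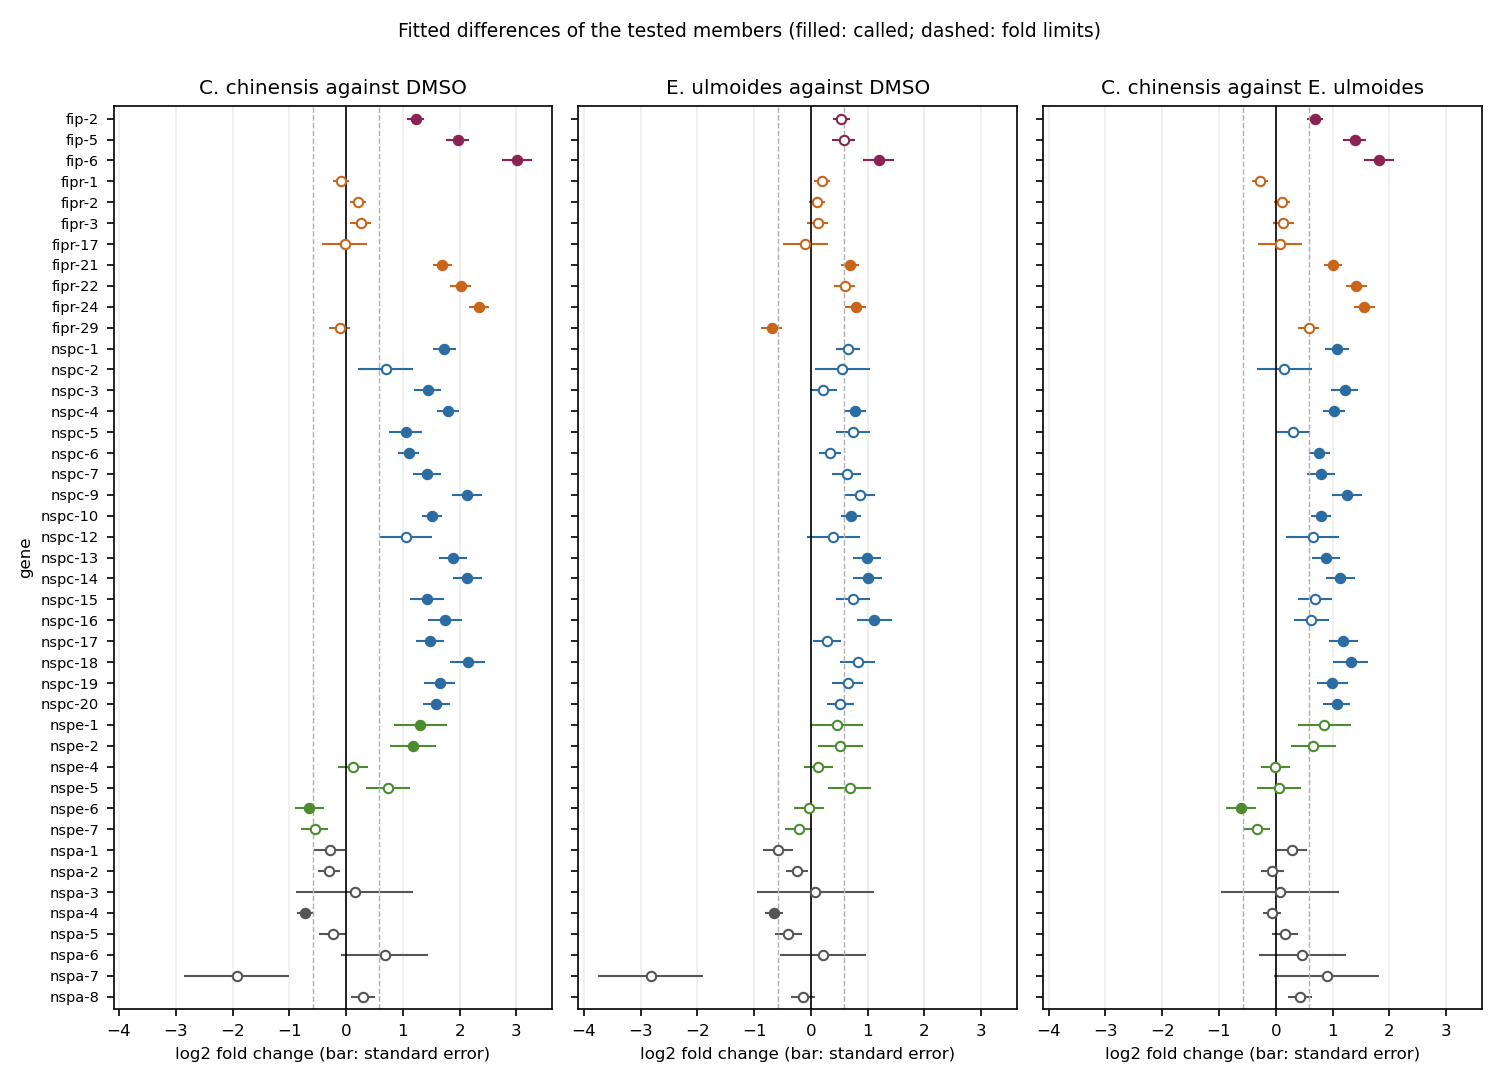
Fitted log2 fold change of each of the 43 tested members (points, x axis) in the 3 comparisons, with its standard error as a bar. Filled points passed both limits, and dashed lines mark folds of 1.5 and 0.667. With C. chinensis the 3 fip genes, 16 of 18 nspc genes, 3 of 8 fipr genes and 2 of 6 nspe genes are filled on the right, with smaller values with E. ulmoides. The uncalled nspc-2 and nspc-12 also lie right of the upper dashed line with C. chinensis.

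The nspc family had the highest summed FPKM of the families with C. chinensis. Its summed FPKM was 82.7, 211, 186, 140 and 115.3 in DMSO replicates 1 to 5, 475, 544, 628, 376 and 694 in the C. chinensis libraries. In the E. ulmoides libraries it was 266, 177, 198, 281 and 179. All 5 C. chinensis libraries were above all others, and the E. ulmoides libraries overlapped with the DMSO libraries. The 5 most abundant members, nspc-10, nspc-14, nspc-7, nspc-4 and nspc-20, made up 73.6% of the sum, and nspc-10 alone 20.97%.

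The most abundant member, nspc-10 (X:12343609-12344043, WBcel235), stood at 23.0, 48.8, 38.8, 33.7 and 25.9 FPKM with DMSO. With C. chinensis it stood at 90.8, 103, 122, 82.1 and 139 FPKM. The lowest C. chinensis library was thus well above the highest DMSO library, and the fitted log2 fold change was 1.51 (SE 0.18, adjusted p = 2.4e-06, n = 5 per group). Behind these values stood 412 to 1575 fragments per DMSO library and 1552 to 2620 per C. chinensis library.

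The second, nspc-14 (X:12358614-12359057), had the widest step among the abundant members. It stood at 10.8, 39.4, 27.9, 17.1 and 15.4 FPKM with DMSO and at 88.8, 105, 120, 64.3 and 137 FPKM with C. chinensis, a log2 fold change of 2.13 (SE 0.25, adjusted p = 2.7e-06). The groups did not overlap, although DMSO replicate 2 was more than 3.6 times DMSO replicate 1, the largest such ratio of this gene within a group.

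The other 3 abundant members behaved alike. For nspc-7 (X:8541862-8542283) the values were 11.5, 28.8, 29.4, 18.4 and 20.4 FPKM with DMSO and 44.4, 61.3, 109, 46.8 and 68.7 with C. chinensis. For nspc-4 (X:8537956-8538362) they lay between 9.53 and 21.2 with DMSO and were 60.1, 58.3, 70.1, 60.3 and 77.5 with C. chinensis. For nspc-20 (X:14529788-14530207) they were 9.80, 20.6, 25.2, 12.3 and 12.7 with DMSO and 52.3, 56.1, 55.4, 28.3 and 82.2 with C. chinensis. In all 3 every C. chinensis library was above every DMSO library, least clearly for nspc-20, whose C. chinensis replicate 4 at 28.3 FPKM came near DMSO replicate 3 at 25.2. The log2 fold changes were 1.43 (SE 0.25) for nspc-7, 1.80 (SE 0.19) for nspc-4 and 1.59 (SE 0.24) for nspc-20, with adjusted p-values of 1e-04, 1.2e-06 and 2.2e-05.

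The largest fitted difference of the family belonged to a weaker member. nspc-18 (X:14527170-14527659) stood at 0.497, 2.89, 3.24, 1.05 and 1.38 FPKM with DMSO and at 11.6, 10.5, 11.6, 4.28 and 12.97 FPKM with C. chinensis, a log2 fold change of 2.14 (SE 0.31, adjusted p = 1.6e-05). Only 8 to 84 fragments stood behind it in the DMSO libraries, and C. chinensis replicate 4 lay far below the other 4 libraries of its group. nspc-9 also had a log2 fold change above 2, at 2.12 (SE 0.26, adjusted p = 3.8e-06), which ran from 3.14 to 9.03 FPKM with DMSO and from 18.5 to 39.4 FPKM with C. chinensis.

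The middle of the family followed the same order. nspc-13 (X:12357427-12357919) stood between 5.35 and 15.1 FPKM with DMSO and between 26.98 and 57.2 FPKM with C. chinensis, with a log2 fold change of 1.88 (SE 0.25, adjusted p = 6.5e-06). nspc-1 ran from 3.29 to 7.33 FPKM and from 16.1 to 23.8 FPKM, a log2 fold change of 1.73 (SE 0.21, adjusted p = 2.8e-06). nspc-16 ran from 0.515 to 3.33 FPKM and from 4.78 to 11.2 FPKM, a log2 fold change of 1.74 (SE 0.30, adjusted p = 9.3e-05). Each of these members rose, as did nspc-3, from 1.57 to 4.85 FPKM with DMSO to 7.36 to 13.2 FPKM with C. chinensis, with a log2 fold change of 1.44 (SE 0.24, adjusted p = 6.9e-05), and nspc-19, at 1.65 (SE 0.27, adjusted p = 6e-05).

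Low members of the family need more care. The genes nspc-5, nspc-6, nspc-12, nspc-15 and nspc-17 reached 1 FPKM in 5 libraries only when the C. chinensis libraries were counted, so for them passing the filter and being higher with C. chinensis are linked. Of these 5, all but nspc-12 were called higher, with log2 fold changes from 1.05 for nspc-5 to 1.48 for nspc-17. Among the 13 nspc genes that passed without the C. chinensis libraries, 12 were called higher, beside 15.8% of the 12951 genes of the whole table that passed in that way.

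The other 2 tested nspc genes were not called, and 1 library decided the mean of each, namely C. chinensis replicate 2. In nspc-2 (X:8535469-8535819) it stood at 16.9 FPKM while the other C. chinensis libraries stood at 2.09, 4.39, 2.84 and 3.34, close to the DMSO range of 1.07 to 3.57. In nspc-12 (X:12356194-12356681) it stood at 6.62 FPKM while the others stood at 0.517, 1.08, 0.776 and 1.601, against 0 to 1.38 with DMSO. Their log2 fold changes were 0.70 (SE 0.48, adjusted p = 0.21) and 1.05 (SE 0.46, adjusted p = 0.055). The pseudogenes nspc-8 and nspc-11 stayed at or under 0.65 FPKM in every library and were not tested.

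**Figure D2:**
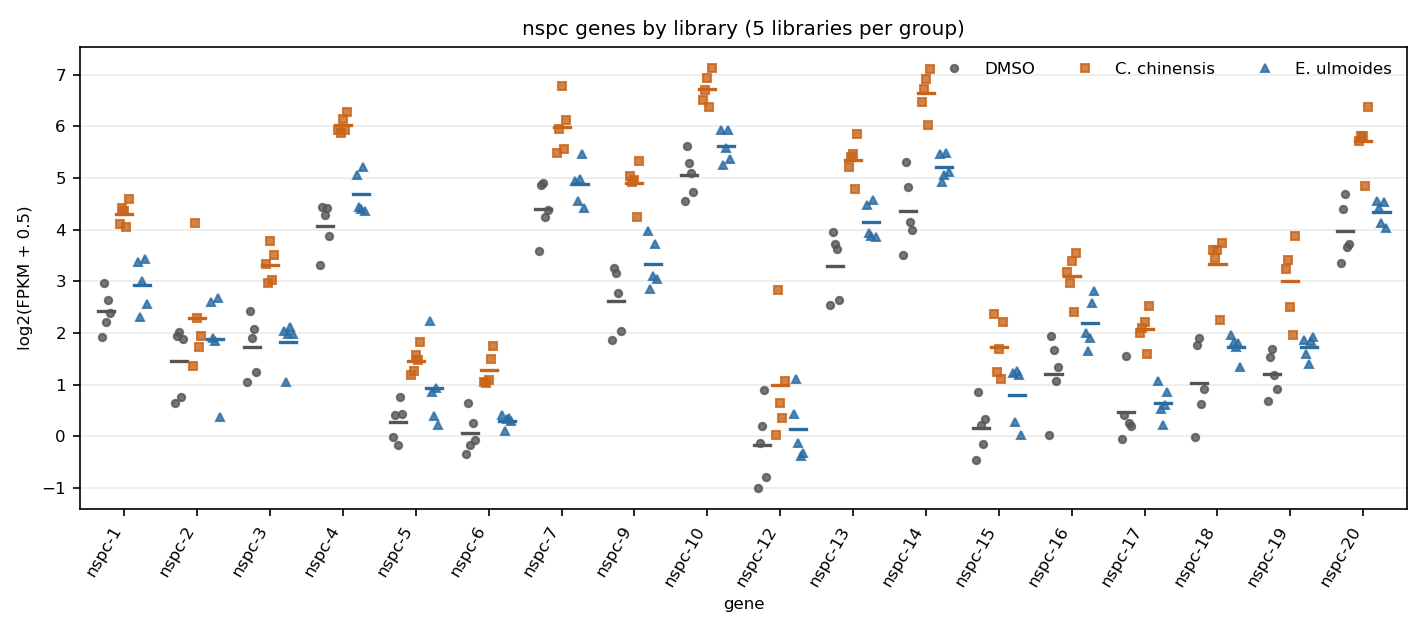
log2(FPKM + 0.5) of the 18 tested nspc genes (y axis) in each of the 15 libraries (points), with the mean of each group as a short line. The C. chinensis libraries lie above all DMSO libraries in 16 of the 18 genes. In nspc-2 and nspc-12 a single C. chinensis library stands apart from the rest.

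All 20 nspc genes lie on the X chromosome in 3 clusters, with neighbouring genes often on opposite strands. The first cluster holds nspc-1 to nspc-7 within 7.61 kb (X:8534672-8542283), and 6 of its 7 genes were called higher with C. chinensis. The second holds nspc-8 to nspc-15 within 18.9 kb (X:12342289-12361159), with 5 of 6 tested genes called higher. The third holds nspc-16 to nspc-20 within 6.63 kb (X:14523575-14530207), and all 5 were called higher. Higher calls were thus found in all 3 clusters, against 16.9% of all tested genes called higher. Every tested nspc gene had a positive fitted value, beside 6063 of all 13743 tested genes. These counts include nspc-5, nspc-6, nspc-15 and nspc-17, which passed the filter only with the C. chinensis libraries.

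Properties shared by the nspc genes were set beside other genes that have them. Of the 1717 other tested genes on the X chromosome, 31.2% were called higher and 1.05% lower with C. chinensis, with a median log2 fold change of 0.38, so the X chromosome stood above all other chromosomes (8.03% higher on I to 25.9% on V). Of 1132 other tested genes no longer than the longest nspc gene, 17.2% were called higher. Genes lying inside the clusters or within 10 kb of them were also read. Of 12 such tested genes, 4 were called higher and none lower, namely zig-2 (a secreted immunoglobulin-domain protein) at 0.85, F42F12.4 at 0.91, gcsh-1 (a glycine cleavage system protein) at 0.75 and T24C2.5 at 0.74. The closest genes of the first cluster, flp-5 (a neuropeptide gene, log2 fold change 0.34) and sdha-1 (a subunit of mitochondrial complex II, log2 fold change 0.01), were not called. These neighbours were chosen by position after the member values were seen, and each had a smaller difference than any called nspc gene.

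All 3 tested fip genes rose with C. chinensis. The most abundant, fip-2 (V:9067978-9068390), made up 81.3% of the FPKM of its family. It stood at 33.5, 57.5, 54.3, 45.7 and 41.9 FPKM with DMSO and at 96.8, 120, 173, 102 and 122 FPKM with C. chinensis. No libraries of these groups overlapped, and the log2 fold change was 1.22 (SE 0.15, adjusted p = 2.9e-06). fip-2 overlaps the gene T27E4.5 on the opposite strand, which had a mean of 0.118 FPKM.

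fip-6 (I:8945533-8946244) had the largest rise of all members. It was near the detection limit in controls, at 0.452, 1.25, 0.860, 0.957 and 0.0449 FPKM with DMSO, which is 1 to 40 fragments per library. With C. chinensis it stood at 11.4, 8.45, 13.99, 4.88 and 11.6 FPKM. The log2 fold change was 3.01 (SE 0.27, adjusted p = 2.5e-07), or a fitted fold of 8.07, and ran from 2.53 to 3.98 over the alternatives. With so few control fragments the size of the fold depends on the pseudocount, whereas the separation of the groups does not.

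The remaining tested fip gene, fip-5 (X:10302741-10303143), stood at 3.08, 7.28, 6.53, 5.80 and 4.40 FPKM with DMSO. It stood at 19.5, 25.1, 33.2, 18.0 and 29.1 FPKM with C. chinensis, with a log2 fold change of 1.97 (SE 0.20, adjusted p = 7.8e-07). The lowest C. chinensis library lay far above the highest control library of this gene. The other 4 fip genes were below the filter, with a highest value of 1.05 FPKM, seen in fip-1.

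The fipr family was split. The 3 members that rose were fipr-21 (X:10304529-10304867), fipr-22 (I:14155429-14156336) and fipr-24 (I:14157611-14158078). fipr-21 stood at 14.4, 29.2, 17.2, 23.3 and 18.7 FPKM with DMSO and at 70.4, 73.8, 101, 50.9 and 79.9 FPKM with C. chinensis. fipr-22 stood at 1.29, 2.77, 2.92, 2.84 and 2.61 FPKM with DMSO and at 14.8, 12.0, 10.3, 9.85 and 17.4 FPKM with C. chinensis. fipr-24 stood at 4.195, 7.63, 5.86, 8.08 and 5.77 FPKM with DMSO and at 28.3, 32.9, 51.1, 31.4 and 47.3 FPKM with C. chinensis. None of the 3 overlapped between these groups, and the log2 fold changes were 1.70 (SE 0.16), 2.02 (SE 0.18) and 2.34 (SE 0.18), with adjusted p-values of 3.4e-07, 2.8e-07 and 9.2e-08.

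fipr-1 and fipr-2, which were the most abundant fipr genes with DMSO, did not follow. fipr-1 (V:12361301-12361744) stood at 25.1, 28.1, 22.7, 24.98 and 26.8 FPKM with DMSO and at 17.8, 30.8, 32.2, 31.5 and 24.6 FPKM with C. chinensis. Its neighbour fipr-2 (V:12365348-12365869) stood at 30.1, 32.6, 22.0, 23.4 and 32.6 FPKM with DMSO and at 25.7, 43.8, 40.3, 39.7 and 33.8 FPKM with C. chinensis. In both genes C. chinensis replicate 1 was the lowest of its group, and the groups overlapped. The log2 fold changes were -0.09 (SE 0.14, adjusted p = 0.60) and 0.21 (SE 0.14, adjusted p = 0.18), and the approximate 95% intervals of the differences ran from -0.36 to 0.19 and from -0.06 to 0.49, both below the limit for a higher call.

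The 3 remaining tested fipr genes were low and not called with C. chinensis. fipr-29 (III:3059598-3060362) stood at 2.45 to 4.00 FPKM with DMSO and at 2.26 to 5.14 FPKM with C. chinensis. fipr-17 had a within-group spread larger than 98.7% of all tested genes, from 0.635 to 3.34 FPKM with DMSO. fipr-3 lies opposite F23D12.11, which had a mean of 17.5 FPKM against 1.45 FPKM for fipr-3, and without strand information their fragments cannot be told apart.

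Some fip and fipr genes are neighbours. fip-5 and fipr-21 lie within 2.13 kb on the X chromosome, and both were called higher with C. chinensis. fipr-22, fipr-23 and fipr-24 lie within 4.85 kb on chromosome I, and both tested genes were called higher. fip-6 lies beside fipr-26, which failed the filter because it reached 1 FPKM in 4 libraries. When the filter was left out, fipr-26 had a log2 fold change of 1.56 (SE 0.31, adjusted p = 0.0011) with C. chinensis. By contrast, neither fipr-1 nor fipr-2, which lie within 4.57 kb on chromosome V, was called.

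**Figure D3:**
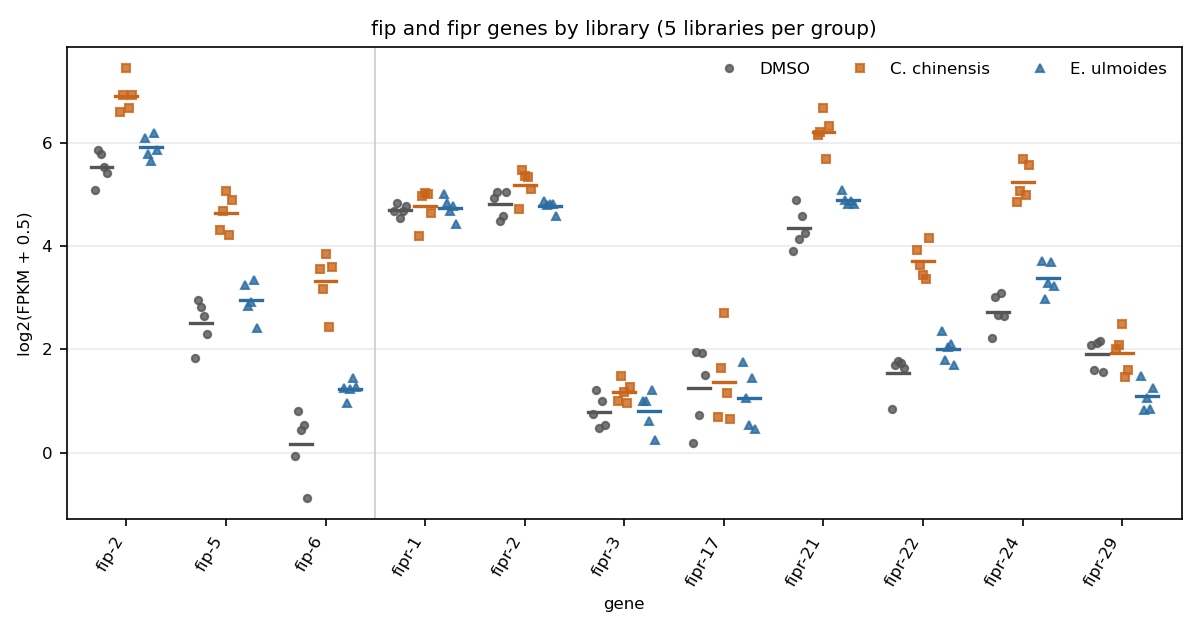
log2(FPKM + 0.5) of the 3 tested fip genes and the 8 tested fipr genes (y axis) in the 15 libraries (points), with group means as short lines and a vertical line between the families. fip-2, fip-5, fip-6, fipr-21, fipr-22 and fipr-24 are separated between C. chinensis and DMSO, and fipr-1 and fipr-2 are not.

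The nspe genes all lie within 16.9 kb on chromosome II (12612518-12629384), and they moved in both directions. nspe-1 (II:12620649-12620864) stood at 6.46, 11.7, 24.7, 17.7 and 2.14 FPKM with DMSO and at 23.6, 26.6, 50.0, 16.4 and 28.9 FPKM with C. chinensis. nspe-2 (II:12619173-12619388) stood at 3.57, 6.91, 13.8, 10.2 and 1.31 FPKM with DMSO and at 14.1, 13.4, 24.7, 8.89 and 16.9 FPKM with C. chinensis. The groups overlapped in both genes because DMSO replicates 3 and 4 stood above C. chinensis replicate 4. The DMSO libraries ran over more than a 10-fold range, with replicate 5 lowest and replicate 3 highest in each. The log2 fold changes were 1.31 (SE 0.47, adjusted p = 0.020) and 1.18 (SE 0.40, adjusted p = 0.015). nspe-1 lost its call with no filter on low values, without DMSO replicate 5 and without C. chinensis replicate 3, and its adjusted p ranged from 0.0047 to 0.061 over the alternatives, whereas nspe-2 remained called in all of them.

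nspe-6 (II:12615828-12616181) went the other way, at 7.96, 9.30, 10.6, 10.1 and 4.45 FPKM with DMSO and 3.49, 6.57, 10.3, 5.73 and 3.95 FPKM with C. chinensis. The groups overlapped, and the log2 fold change fell by 0.65 (SE 0.26, adjusted p = 0.034), a call that was lost in 10 of 28 alternatives. Among those 10 were the fits without DMSO replicate 2, 3 or 4 and without C. chinensis replicate 1 or 5. nspe-7 missed the fold limit at -0.55 (SE 0.24, adjusted p = 0.047), and nspe-4, an unusually long member with a recovered length of 1590 nucleotides, had a log2 fold change of 0.12 (SE 0.26, adjusted p = 0.68). No nspe gene was called with E. ulmoides, where the 6 fitted values lay between -0.21 and 0.68.

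The nspa genes had a summed mean of 167 FPKM (SD 19.6, n = 5) in control worms, against 147 (SD 52.2) for nspc. Their sum was 153 FPKM (SD 71.5) with C. chinensis and 113 (SD 53.3) with E. ulmoides. The 7 members nspa-1 to nspa-7 lie within 12.8 kb on chromosome V (14878348-14891186). Their annotated exons are all 105 nucleotides long and hold the coding part alone. The lengths recovered from the FPKM were 250 nucleotides for nspa-4 and 179 for nspa-5.

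nspa-4 (V:14884716-14884820) was lower with both extracts. It stood at 36.1, 46.6, 44.9, 45.4 and 43.0 FPKM with DMSO, at 44.7 FPKM in C. chinensis replicate 3 and 24.3 to 27.8 FPKM in the other 4 libraries of that group, and at 30.6, 22.1, 24.8, 32.1 and 16.8 FPKM with E. ulmoides. Every E. ulmoides library and 4 of the 5 C. chinensis libraries were below every DMSO library, and C. chinensis replicate 3 was inside the DMSO range. The log2 fold change fell by 0.72 (SE 0.16, adjusted p = 6.7e-04) with C. chinensis and by 0.64 (SE 0.16, adjusted p = 0.029) with E. ulmoides, and both comparisons used the same DMSO libraries. The first call was lost in 1 of 28 alternatives, with no further scaling, and the second in 10 of 28, among them the fits without DMSO replicate 3 or 4 and without E. ulmoides replicate 2, 3 or 5.

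The most abundant nspa gene, nspa-5 (V:14878348-14878452), stood at 44.1, 65.4, 49.6, 54.4 and 47.9 FPKM with DMSO, at 32.9, 48.7, 90.9, 52.6 and 37.0 FPKM with C. chinensis, and at 48.2, 26.1, 35.8, 52.2 and 23.2 FPKM with E. ulmoides. Its groups overlapped in every comparison, and the log2 fold changes were -0.23 (SE 0.24, adjusted p = 0.39) and -0.40 (SE 0.24, adjusted p = 0.32) against DMSO. nspa-2 gave -0.30 (SE 0.19, adjusted p = 0.18) and -0.24 (SE 0.19, adjusted p = 0.48).

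nspa-3 and nspa-7 swung between libraries of the same group. nspa-3 (V:14880435-14880539) stood at 68.7, 4.71, 2.49, 28.4 and 23.5 FPKM with DMSO, at 17.2, 5.11, 89.3, 3.49 and 60.5 FPKM with C. chinensis, and at 85.0, 1.69, 5.86, 27.2 and 17.9 FPKM with E. ulmoides. The highest library was 50.5 times the lowest within the E. ulmoides group, and the group means were close, with log2 fold changes of 0.15 and 0.08 (SE 1.03 each). nspa-7 (V:14883039-14883143) stood at 22.6, 38.9, 23.5, 2.01 and 21.8 FPKM with DMSO, at 1.52, 1.43, 17.1, 24.3 and 0.928 FPKM with C. chinensis, and at 2.51, 0.722, 14.7, 0.458 and 0.427 FPKM with E. ulmoides. Its fitted log2 fold changes, -1.92 with C. chinensis and -2.82 with E. ulmoides (SE 0.92 each), were the lowest of all 13743 genes in both comparisons, yet neither was called, with adjusted p-values of 0.075 and 0.081. The within-group SDs of nspa-3 and nspa-7, 1.959 and 1.75 on the log2 scale, exceeded those of nearly all tested genes, whose median was 0.16, and nspa-6 had 1.44. Behind these values stood 7 to 779 fragments per library for nspa-3 and 2 to 338 for nspa-7. How fragments matching several similar copies were counted is not given in the sources used here, and the values of single nspa and nspc genes are uncertain to that extent.

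**Figure D4:**
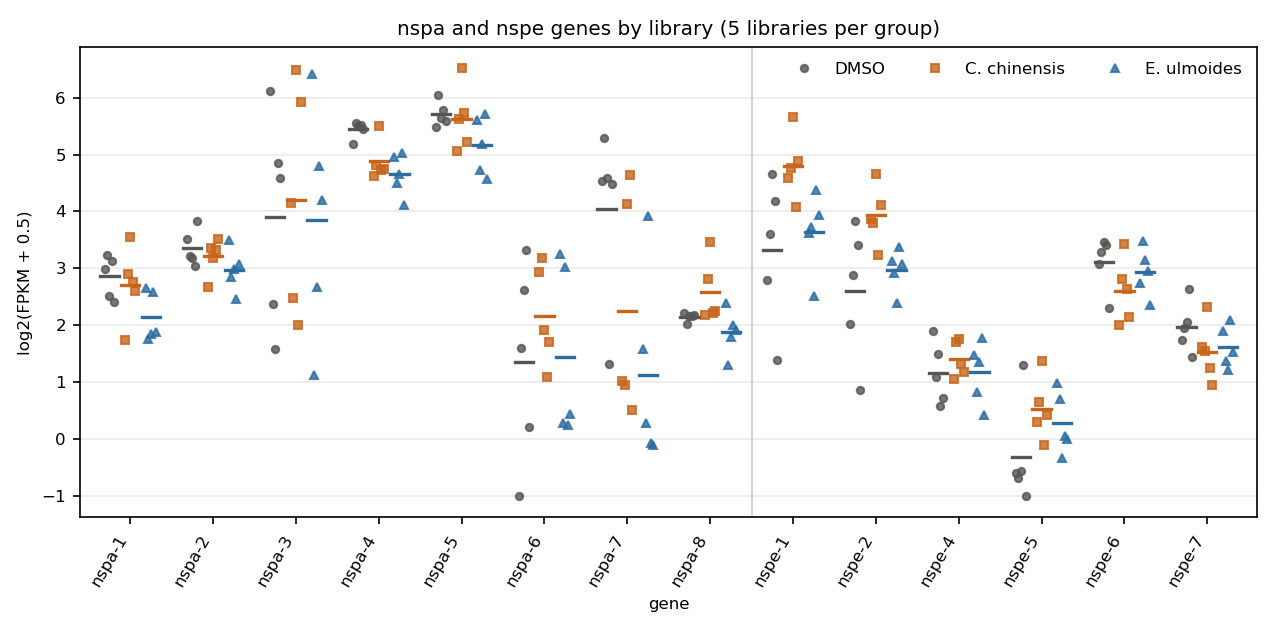
log2(FPKM + 0.5) of the 8 tested nspa genes and the 6 tested nspe genes (y axis) in the 15 libraries (points), with group means as short lines and a vertical line between the families. nspa-3, nspa-6 and nspa-7 range widely within every group, and nspa-4 is lower with both extracts apart from C. chinensis replicate 3.

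The nspb genes were practically silent. None of the 12 exceeded 0.363 FPKM in any library, and 2 of them were listed at 0 throughout. Of the other 33 members left untested, 21 were fipr genes, 4 were fip genes, 4 were nspa genes, 2 were nspc genes and 2 were nspe genes. With no filter on low values, 4 of the members left out were called higher with C. chinensis, namely fipr-26 and the genes fip-1 at 0.89, fipr-10 at 0.77 and fipr-28 at 0.71, and none was called with E. ulmoides. These were 4 of 40 members with a value, and 9.45% of all 26686 genes of that fit were called higher with C. chinensis and 0.217% with E. ulmoides.

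With E. ulmoides against DMSO, 8 members were called higher and 2 lower, against 1.11% and 0.109% of all tested genes. The 8 were fip-6, fipr-21, fipr-24, nspc-4, nspc-10, nspc-13, nspc-14 and nspc-16, and all 8 had also been called with C. chinensis, a comparison that shares the DMSO libraries. The 2 lower were nspa-4 and fipr-29. All 18 tested nspc genes had a positive fitted value, with a median of 0.68, beside 9060 of 13743 genes and a median of 0.07 over all tested genes. The 8 higher calls depended on the settings, while their fitted values stayed positive in every alternative that gave one, from 0.89 to 1.95 for fip-6, from 0.78 to 1.16 for nspc-14 and from 0.82 to 1.40 for nspc-16. No higher call remained with no further scaling, with quantile normalization, with no filter on low values, with a block for replicate or code number, with voom on the fragments, or without DMSO replicate 1 or 3, C. chinensis replicate 2 or 5 or E. ulmoides replicate 1. Without C. chinensis replicate 3 or 4 or E. ulmoides replicate 4 there were 2, without DMSO replicate 5 there were 3, without E. ulmoides replicate 2 there were 4, without DMSO replicate 2 or 4 there were 5, and without E. ulmoides replicate 3 or 5 there were 6. C. chinensis libraries enter this comparison because the filter, the scaling and the spread are shared over all 15 libraries.

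fip-6 was the clearest of them. It stood at 1.87, 1.44, 1.87, 2.24 and 1.92 FPKM with E. ulmoides, above all 5 DMSO libraries, whose highest was 1.25. Its log2 fold change was 1.19 (SE 0.27, adjusted p = 0.022). It was the single member whose E. ulmoides libraries all lay above the DMSO libraries, as did 1.13% of all tested genes, and its call was still lost in 12 of 27 alternatives.

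In the other 7 the groups overlapped. nspc-14 stood at 43.4, 29.8, 32.6, 44.3 and 34.3 FPKM with E. ulmoides, and DMSO replicate 2, at 39.4 FPKM, was inside that range, with a log2 fold change of 1.00 (SE 0.25, adjusted p = 0.034). nspc-10 stood at 60.8, 37.7, 47.4, 60.7 and 41.01 FPKM, and DMSO replicates 2 and 3 reached 48.8 and 38.8, with 0.71 (SE 0.18, adjusted p = 0.033). nspc-4 stood at 32.9, 21.2, 20.8, 36.7 and 19.9 FPKM, with 0.77 (SE 0.19, adjusted p = 0.034). E. ulmoides replicates 1 and 4 were the 2 highest of their group in nspc-10, nspc-14 and nspc-4, and the other 3 libraries stood close to the upper DMSO values. nspc-13 gave 0.99 (SE 0.25, adjusted p = 0.031) and nspc-16 gave 1.12 (SE 0.30, adjusted p = 0.044).

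fipr-21 stood at 33.6, 29.3, 27.7, 28.8 and 27.8 FPKM with E. ulmoides, a narrow range whose lower end was crossed by DMSO replicate 2 at 29.2, and its log2 fold change was 0.69 (SE 0.16, adjusted p = 0.023). fipr-24 stood at 12.6, 7.32, 9.21, 12.4 and 8.89 FPKM, with 0.79 (SE 0.18, adjusted p = 0.024). fipr-29 was lower, at 2.32, 1.28, 1.59, 1.29 and 1.89 FPKM against 3.74, 2.52, 3.83, 4.00 and 2.45 with DMSO, and the log2 fold change fell by 0.69 (SE 0.19, adjusted p = 0.042). fipr-29 and nspa-4 were the 2 members whose E. ulmoides libraries all lay below the DMSO libraries before rescaling, as did 6.58% of all tested genes. After rescaling the groups overlapped in fipr-29. The fipr-29 call was lost in 19 of 27 alternatives, among them the fits without DMSO replicate 1, 3 or 4, without C. chinensis replicate 2, 4 or 5 and without any single E. ulmoides library.

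One control library bears on both comparisons. DMSO replicate 1 was the lowest of its group in 17 of the 18 tested nspc genes, whereas it was lowest in 22.7% of all tested genes. Its nspc sum of 82.7 FPKM was the lowest of the 15 libraries, and its fragment total, 45859124, was the median of its group. Without it, 24 members were still called higher with C. chinensis and none with E. ulmoides. C. chinensis replicate 4 was likewise lowest of its group in 11 of the 18 nspc genes, beside 23.1% of all tested genes. C. chinensis replicate 5 was highest in 13, beside 20.4% of all tested genes.

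**Figure D5:**
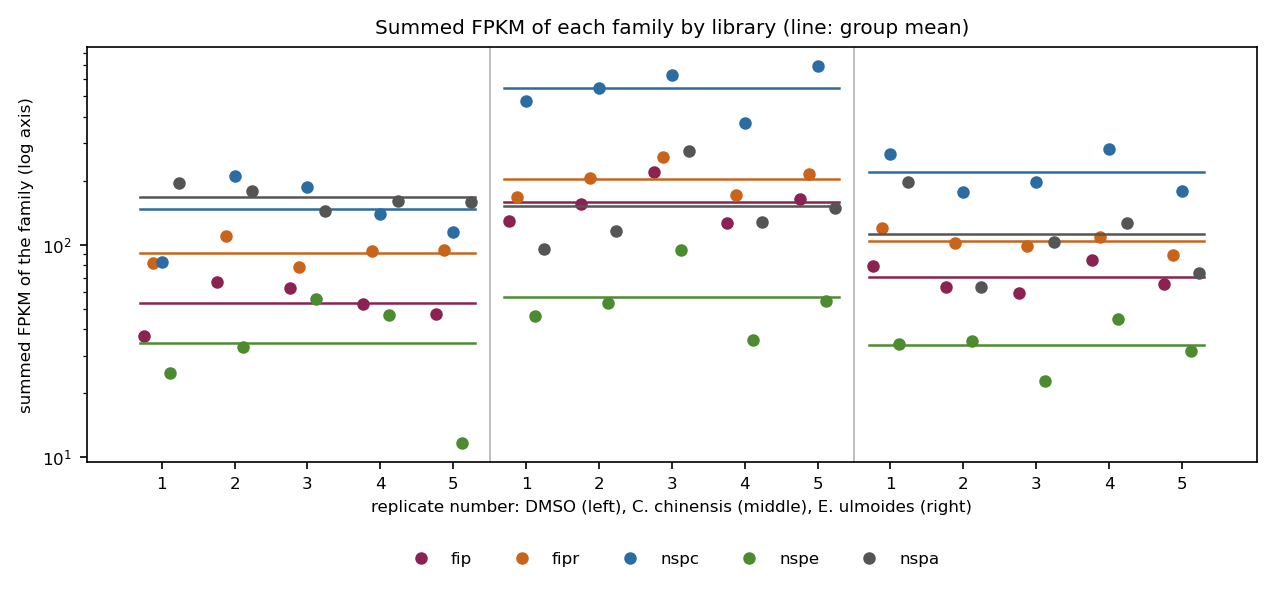
Summed FPKM of the fip, fipr, nspc, nspe and nspa families (y axis, log scale) in each library (points, by replicate number), with group means as lines. The nspc sum lies between 376 and 694 with C. chinensis and between 82.7 and 281 in the other libraries, and the nspa sum does not separate the groups. nspb is left out because its sum stayed under 0.7 in every library.

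The extracts were also compared directly. With C. chinensis against E. ulmoides, 19 members were called higher and 1 lower, against 13.2% and 9.56% of all tested genes. Among the 37 members that passed the filter without the C. chinensis libraries, 17 were called higher, beside 12.2% of all genes passing that way. The 19 were 13 nspc genes, the 3 tested fip genes, fipr-21, fipr-22 and fipr-24. Of these, nspc-6 and nspc-17 passed the filter only with the C. chinensis libraries. In all 19 every C. chinensis library lay above every E. ulmoides library before rescaling, as in 35.1% of all tested genes. After rescaling the groups overlapped in nspc-7, nspc-13 and nspc-19. The largest difference was again in fip-6, with a log2 fold change of 1.82 (SE 0.27, adjusted p = 1.5e-05), and fip-5 gave 1.39 (SE 0.20, adjusted p = 1.3e-05) and fip-2 0.69 (SE 0.15, adjusted p = 4.9e-04). fipr-24 gave 1.56 (SE 0.18, adjusted p = 1.6e-06), fipr-22 1.42 (SE 0.18, adjusted p = 4e-06) and fipr-21 1.00 (SE 0.16, adjusted p = 2.9e-05).

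Among the nspc genes the difference between the extracts was largest in nspc-18, at 1.32 (SE 0.31, adjusted p = 0.0011), followed by nspc-9 at 1.26 (SE 0.26, adjusted p = 3.9e-04) and nspc-3 at 1.21 (SE 0.24, adjusted p = 2.7e-04). nspc-3 stood at 3.60, 1.57, 3.42, 3.85 and 3.44 FPKM with E. ulmoides, a mean of 3.18 against 3.05 with DMSO, and was not called against DMSO (log2 fold change 0.22, SE 0.24, adjusted p = 0.62). The called nspc genes with the smallest difference were nspc-6 at 0.77 (SE 0.19), nspc-7 at 0.80 (SE 0.25) and nspc-10 at 0.80 (SE 0.18). nspc-16 was not called, at 0.63 (SE 0.30, adjusted p = 0.077), and neither were nspc-2, nspc-5, nspc-12 and nspc-15. The 1 lower member was nspe-6, which fell by 0.61 (SE 0.26, adjusted p = 0.043), with overlapping groups and a call that was lost in 17 of 28 alternatives, among them the fits without DMSO replicate 2 or 3, without C. chinensis replicate 1, 2, 4 or 5 and without E. ulmoides replicate 1, 2, 3 or 4. Of the 19 higher calls 18 held in every alternative that gave a value, and nspc-6 lost its call with quantile normalization.

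Other genes of the epidermal response to fungi were read from a list chosen with earlier results of these data known. Of all tested genes, 16.9% were called higher with C. chinensis, 1.11% with E. ulmoides and 13.2% between the extracts. All 17 tested genes of the 22 nlp-24 to nlp-34 and cnc-1 to cnc-11 genes were called higher with C. chinensis, 4 with E. ulmoides and 17 between the extracts, with medians of 1.80, 0.50 and 1.17. Their summed FPKM ran from 140 to 271 with DMSO, from 586 to 1030 with C. chinensis and from 225 to 334 with E. ulmoides, so the C. chinensis libraries were above all others. The genes with the smallest p were cnc-4 at 2.20 (SE 0.19, adjusted p = 1.8e-07), cnc-6 at 2.67 (SE 0.24, adjusted p = 2.6e-07) and nlp-31 at 1.80 (SE 0.16, adjusted p = 2.8e-07), all antimicrobial peptide genes of the epidermis. With E. ulmoides they gave 1.03, 1.502 and 0.72 (adjusted p = 0.011, 0.006 and 0.023).

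Of 18 tested genes listed for signalling in that response, 7 were called higher with C. chinensis, against 16.9% of all tested genes, and none with E. ulmoides. They included dcar-1, a receptor of the epidermis, at 0.86 (SE 0.08, adjusted p = 4.9e-07), gpa-12, the G protein alpha subunit acting after it, at 1.16 (SE 0.13, adjusted p = 1.5e-06), and hlh-30, a transcription factor of autophagy and immunity genes, at 0.66 (SE 0.07, adjusted p = 7e-07). elt-3, also among the 7, stands on the list of epidermis markers as well and is counted again below. The other 11 were not called, among them rack-1 at -0.32 (SE 0.08, adjusted p = 0.0015). The genes for the adaptor and the kinases of the p38 cascade were tir-1 at -0.01, nsy-1 at 0.37 (adjusted p = 4.7e-04), sek-1 at 0.16 (adjusted p = 0.034) and pmk-1 at 0.03. The genes cebp-1, egl-8, dapk-1 and plc-3 lay from 0.37 to 0.45 (adjusted p from 1.4e-05 to 3.1e-04) and, like nsy-1, missed only the fold limit. None of the 9 tested genes of another nematode-specific peptide group, nspd, which is known for expression in sperm, was called in any comparison. Their sum ran from 831 to 995 FPKM with DMSO, 735 to 1343 with C. chinensis and 579 to 802 with E. ulmoides, and nspd-10 gave -0.46 (SE 0.14, adjusted p = 0.0074) with C. chinensis, inside the fold limit.

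Tissue markers moved with C. chinensis as well, and in whole worms a change in the number of cells of a type and a change in RNA per cell cannot be told apart. No marker was at 0 in all libraries, but 1 fragment in 1 library is enough for that, so it does not show how well a tissue was represented. Of 14 epidermis markers 7 reached the test filter, and of 12 pharynx markers 7. cnc-9 was the 1 antimicrobial peptide gene listed at 0 throughout. Beside the marker counts, 16.9% of all tested genes were called higher and 3.49% lower with C. chinensis. With E. ulmoides these shares were 1.11% and 0.109%. Of the epidermis markers 7 of 14 were tested and 3 called higher, elt-3 (an epidermal transcription factor) at 0.99, col-19 (an adult cuticle collagen) at 2.31 and sqt-3 (a cuticle collagen) at 0.64, while lin-26 (an epidermal cell fate factor) at -0.46, ptr-2 at -0.33 and elt-1 (an epidermal GATA factor) at -0.13 had negative values and were not called. The remaining tested epidermis marker had the middle value of the 7, at 0.44, and was not called. Between the extracts 2 epidermis markers were called higher and 1 lower, lin-26 at -0.64, with a median of 0.28 over the tested ones. The summed FPKM of the epidermis markers ran from 104.2 to 117 with DMSO, 111 to 164 with C. chinensis and 98.2 to 111 with E. ulmoides. Of 10 body wall muscle markers 7 were called higher with C. chinensis (169 to 211 FPKM with DMSO, 300 to 443 with C. chinensis), of 10 intestine markers 6 (439 to 831 and 1782 to 2840 FPKM), of 7 tested pharynx markers 2 (52.0 to 62.2 and 88.0 to 118 FPKM) and of 9 tested neuron markers 2 (389 to 412 and 524 to 613 FPKM). The germline markers had 1 of 10 called lower, htp-3 (a meiotic chromosome axis protein) at -0.70 (SE 0.09, adjusted p = 5.2e-06), with 2189 to 2287 FPKM with DMSO and 1581 to 2023 with C. chinensis, and no sperm marker was called. With E. ulmoides 1 marker of all these lists was called, asp-1 (an intestinal aspartyl protease) at 1.05. Between the extracts 9 of 10 intestine, 9 of 10 body wall muscle, 3 of 7 tested pharynx and 2 of 9 tested neuron markers were called higher. Of 10 germline markers 3 were called lower, and no sperm marker was called. Of all tested genes 13.2% were called higher and 9.56% lower between the extracts. The part of these tissue differences in the values of the fip, fipr and nspc genes was not tested.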

How the data were processed

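RNA-seq was deposited as FPKM per gene for 15 libraries of whole worms. The authors aligned the reads to WBcel235 with HISAT2 (no version stated) and made the deposited FPKM, and the counter, its use of strand and its annotation are not given in the sources used here. The FPKM of piRNA genes, which share one length, are whole multiples of 1 step per library, which gave the library totals. Of the 26686 genes above 0, 10628 then gave whole fragments within 0.0001 at their annotated length. For the others a length was searched until the fragments came out whole, so whole fragments were built in for those genes. Depth and its precision are given as those fragments.

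Scaling between libraries used trimmed means of M values with equal weights (30% of M and 5% of A trimmed), and log2(FPKM + 0.5) was fitted with limma 3.58.1 (lmFit, eBayes with trend) in R 4.3.3. Groups came from the deposited labels, and tables were made with Python 3.11.15, pandas 2.3.3 and numpy 2.4.6. Positions are from the Ensembl annotation of WBcel235. The authors used edgeR through DEBrowser, which was not repeated here. The members and gene lists were chosen with earlier results of these data known. Members named with values were the 5 most abundant tested genes of each family, the 3 largest calls per family, comparison and direction, and every E. ulmoides call, with up to 3 called genes of each other list by smallest p (up to 2 where none was called). Other members, and the neighbours of the nspc clusters, were named after their values were seen. Libraries of different groups sharing a replicate number did not deviate together (r from -0.245 to 0.06 over 15 pairs, none above 0.1). Those sharing a code number did not either (r from -0.149 to 0.04 over 11 pairs, none above 0.1). No block was used in the main fit, and both blocks were among the alternatives. Scaling, pseudocount, filter, fold limit, block, voom, libraries in the fit and each library left out were varied. The alternatives counted for single calls were the 28 refits, without the other fold limits. The trimmed mean over all genes above 0 and the fit without the 4 libraries with the most fragments were chosen after seeing the data. Sums over near-identical members and promoter motifs were not analysed here.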

Additional observations from a re-analysis of the deposited data

Results flagged for a closer look

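Within 7 of 87 groups of 5 libraries, 1 library stood apart from the other 4 on the log2 scale by more of the group's range than Dixon's 95% limit allows. Chance alone gives about 1 in 20 such groups. fipr-2 stood at 23.56 FPKM in E. ulmoides replicate 5, against 27.3 to 28.7 in the other 4 libraries. fipr-22 stood at 1.29 FPKM in DMSO replicate 1, against 2.61 to 2.92. nspa-4 stood at 36.11 FPKM in DMSO replicate 1, against 43.0 to 46.6, and at 44.67 FPKM in C. chinensis replicate 3, against 24.3 to 27.8. nspa-7 stood at 2.009 FPKM in DMSO replicate 4, against 21.8 to 38.9. nspc-3 stood at 1.569 FPKM in E. ulmoides replicate 2, against 3.42 to 3.85. nspc-18 stood at 4.282 FPKM in C. chinensis replicate 4, against 10.5 to 12.97.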

How the results depend on the processing

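The 24 members higher and 19 higher between the extracts stayed within 1.5 times of those counts in all alternatives (23 to 25 and 19 to 23 with 1 library left out). The lowest count between the extracts was 13, with the 2-fold limit. The 2 members lower with C. chinensis became 0 with no further scaling and with the 2-fold limit, 1 with no filter and with the code block, and 1 to 4 with 1 library left out. The 8 higher with E. ulmoides became 0 with no further scaling, quantile normalization, no filter and voom, 1 with the trimmed mean over all genes above 0, 2 without the 4 libraries with the most fragments, 3 with median-of-ratios scaling and with the 2-fold limit, and 0 to 8 with 1 library left out. The 2 lower with E. ulmoides became 1 with no further scaling, median-of-ratios scaling, the trimmed mean over all genes above 0, a mean FPKM of at least 5, voom and without the 4 libraries with the most fragments, 0 with quantile normalization, no filter and the 2-fold limit, and 0 to 2 with 1 library left out. The 1 lower between the extracts became 0 with no further scaling, median-of-ratios scaling, the trimmed mean over all genes above 0, a pseudocount of 1, no filter, voom, the 2-fold limit and without the 4 libraries with the most fragments, 2 with quantile normalization, and 0 to 1 with 1 library left out. With the replicate block 25 members were higher and 2 lower with C. chinensis, 0 and 0 with E. ulmoides, and 19 and 1 between the extracts, and with the code block 0 and 0 with E. ulmoides. Over all genes, E. ulmoides calls fell from 153 higher and 15 lower to 73 and 11 with the replicate block and to 1 and 0 with the code block. The cause of these shifts was not tested. No called value changed sign, and 15 of 30 named values that were not called did so in some alternative. The fit with near-identical members summed was not run. Fragment numbers limit the lowest members most, such as fip-6 with 1 to 40 fragments per DMSO library.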
